A study of Mus musculus with 8 samples.

Results

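Genes that carry long-chain fatty acids into the cell and through mitochondrial beta-oxidation were followed in the embryonic mouse heart: Cd36, Fabp3, Cpt1a, Cpt1b, Cpt2, Acadl, Acadm, Acadvl, Hadha and Hadhb. They were found by symbol in the count table, which gave 10 of 22869 distinct symbols, and all 10 were among the 14940 symbols that passed the filter on low counts. RNA came from atrioventricular (AV) cushions, the swellings that form the heart valves, and from ventricles of C57BL/6 embryos at E12.5. Each tissue was taken from both genotypes, with 2 libraries in each of the 4 groups. The mutants are labelled NfatC1+/- with both Klf2 alleles floxed (KLF2fl/fl). Controls carry the label wild type, but KLF2 fl/fl in the series design text, and no label names a recombinase. The labels do not say whether NfatC1+/- means the loss of 1 Nfatc1 copy or an allele that carries a recombinase, so loss of Klf2 and heterozygosity for Nfatc1 cannot be told apart in any comparison of genotypes. Klf2 encodes a transcription factor of the endothelium and endocardium, and Nfatc1 is a gene active in endocardium. The labels do not say in which cells Klf2 was deleted. No label says that libraries of a group were from different embryos or litters, so each p-value reflects only how far these libraries vary, and that variation may be technical.

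Fatty acids enter muscle cells with the help of the membrane transporter CD36 and are held in the cytosol by the binding protein FABP3. After activation to acyl-CoA, they cross into mitochondria as carnitine esters, made by CPT1 at the outer membrane and converted back by CPT2 at the inner membrane. Each turn of beta-oxidation begins with an acyl-CoA dehydrogenase chosen by chain length and, for long chains, goes on in the trifunctional protein built from HADHA and HADHB. The mouse heart relies largely on glucose and lactate before birth and turns to fatty acids as its main fuel after it.

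Klf2 was low in every mutant library, at 1.96 and 0.65 CPM (counts scaled to the library total after normalization and given per 1e6) in mutant cushions and 0.74 and 0.63 CPM in mutant ventricles. It reached 17.3 and 12.9 CPM in wild type cushions and 11.7 and 9.19 CPM in wild type ventricles, so the groups did not overlap. Over the row kept for each symbol, libraries held between 18955733 and 26579215 counts. The 10 genes had between 619 counts, for Fabp3, and 12956 counts, for Hadha, in a library. On the first principal component, mutant cushion replicate 2 lay at -22.8, the remaining cushions at -54.9 to -46.3 and the ventricles at 35.03 to 50.3. The median tissue difference in mutants, that of Cd36, the genotype difference in cushion and the interaction are given with and without it. Values of single genes are otherwise with it unless stated.

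In wild type embryos, 9 of the 10 genes were lower in cushion than in ventricle, with a median log2 fold change of -0.76 against 0.01 over all genes tested. Lower expression passed the threshold for 6 genes (edgeR quasi-likelihood test, Benjamini-Hochberg adjusted p under 0.05 over all 14940 genes), which were Hadhb, Fabp3, Acadl, Cpt1b, Acadm and Cpt2. This count of 6 of 10 stands beside 10.6% of all genes that were called lower. In mutants, 9 of 10 were again lower, with a median of -0.62. Of these, 5 were called lower (Cpt1b, Acadvl, Acadm, Cpt2 and Acadl), beside 3.26% of all genes. The mutant median was -0.83 without mutant cushion replicate 2 and -0.39 without mutant cushion replicate 1. Both comparisons share no library but come from the same fit, with a shared estimate of spread. Deviations of replicates from group means also correlated between wild type and mutant groups, so the comparisons are not independent. With the replicate number added to the model as a block, 9 of 10 were called lower in wild type, beside 20.1% of all genes, and 8 of 10 in mutants, beside 10.5%. Cpt1a was above 0 and passed the threshold in neither genotype, and in mutants its sign turned with an offset for GC content and length. Between mutants and wild type, 0 of the 10 genes passed the threshold in either tissue, beside 0% of all genes. Even Klf2 was therefore not called.

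**Figure D1:**
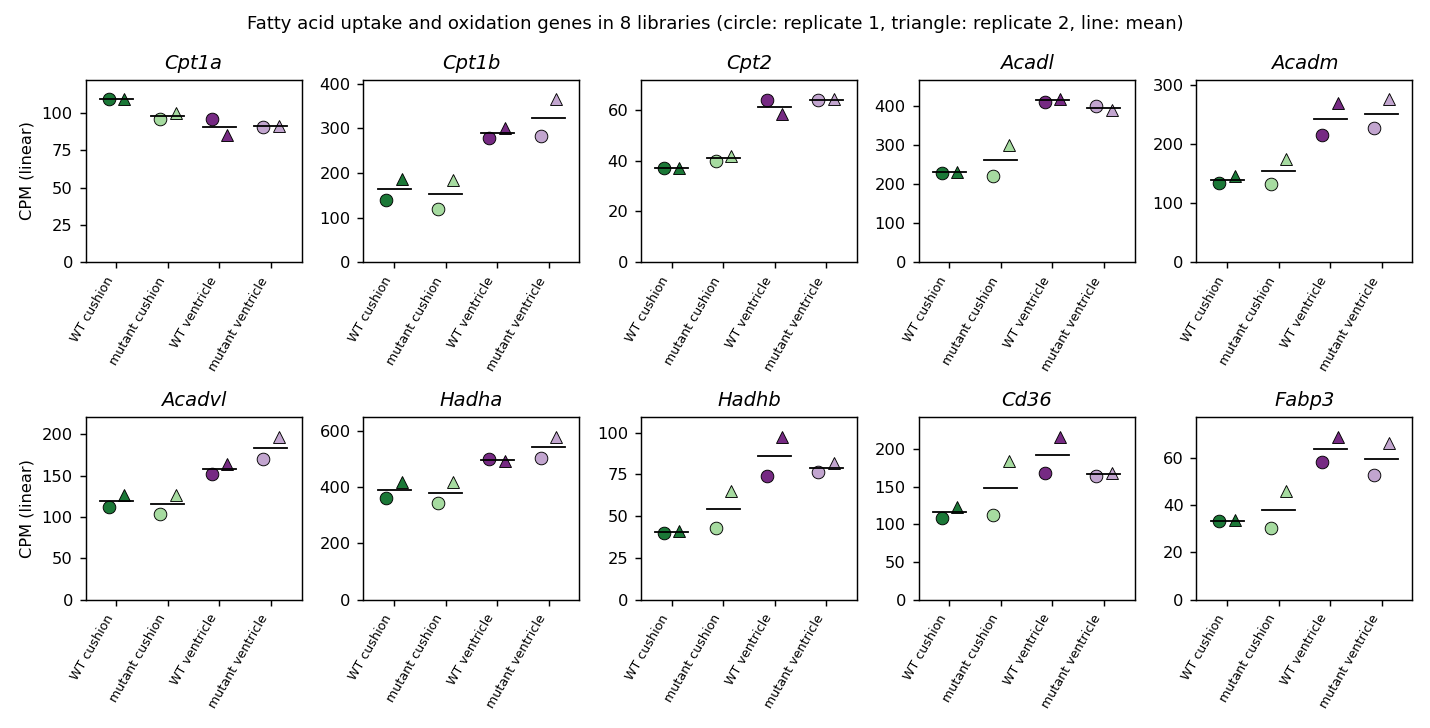
Level of each of the 10 genes in every library, in CPM on a linear axis from 0, by group (circle for replicate 1, triangle for replicate 2, line for the mean). There are 8 genes with every cushion library below every ventricle library; Cpt1a lies between 85.3 and 109 CPM in all libraries, and Cd36 overlaps through mutant cushion replicate 2 at 184 CPM.

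Each sequence below is the stretch of 250 bases before the transcript start that a RefSeq promoter table (build GRCm38.p6) gives for the gene, shown so that genes called lower in wild type cushion can be set beside Cpt1a, which was not. For Cpt1a and Cd36 that start lies inside the full interval of the gene, so the window is not upstream of the whole locus. Capitals mark the nuclear receptor half-site AGGTCA and the GC box GGGCGG, read on both strands; matches to the 2 motifs did not have to be separate. Hadhb lies on the plus strand at chr5:30155003-30155252, in the 272 bases that part it from Hadha, so the same bases precede both subunits of the trifunctional protein. Acadl is on the minus strand at chr1:66863310-66863559, Acadm on the minus strand at chr3:153944644-153944893 and Cpt1a on the plus strand at chr19:3323051-3323300.
Hadhb: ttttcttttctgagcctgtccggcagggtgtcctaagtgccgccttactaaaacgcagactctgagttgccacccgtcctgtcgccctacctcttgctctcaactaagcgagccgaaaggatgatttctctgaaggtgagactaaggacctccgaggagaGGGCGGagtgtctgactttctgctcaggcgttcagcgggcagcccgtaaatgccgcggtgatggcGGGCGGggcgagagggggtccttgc
Acadl: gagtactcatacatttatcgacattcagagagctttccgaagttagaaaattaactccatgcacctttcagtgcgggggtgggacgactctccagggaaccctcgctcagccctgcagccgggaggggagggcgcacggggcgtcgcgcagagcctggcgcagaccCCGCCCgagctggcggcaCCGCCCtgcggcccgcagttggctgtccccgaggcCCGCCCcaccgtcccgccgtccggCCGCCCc
Acadm: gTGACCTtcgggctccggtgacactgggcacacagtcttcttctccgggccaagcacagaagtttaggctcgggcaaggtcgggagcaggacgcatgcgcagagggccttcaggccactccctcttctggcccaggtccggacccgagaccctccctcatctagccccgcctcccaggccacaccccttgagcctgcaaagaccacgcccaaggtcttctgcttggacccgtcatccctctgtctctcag
Cpt1a: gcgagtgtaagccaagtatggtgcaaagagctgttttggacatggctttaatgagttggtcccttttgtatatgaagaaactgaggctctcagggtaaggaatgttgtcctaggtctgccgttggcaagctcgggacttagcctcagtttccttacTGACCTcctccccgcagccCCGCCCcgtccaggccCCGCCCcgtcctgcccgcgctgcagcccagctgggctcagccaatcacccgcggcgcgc

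Of the 10 genes, 9 had an entry in this table, and Cpt1b had none. AGGTCA was found in 4 of the 9 windows (Cpt1a, Acadm, Acadvl and Cd36), against 14% of 32851 windows of the same length for all genes. GGGCGG was found in 6 of 9, against 32.7%. The Hadha and Hadhb windows overlap, and the match in Hadha is also in Hadhb, so these 6 are not all separate sites. The direct repeat of AGGTCA with 1 base between its copies, the form read by PPAR with RXR, was in 0 of 9 and in 0.0335% of all windows, and the extended half-site TCAAGGTCA, read by the ERR receptors, was in 0 of 9 and in 0.387%. Cpt1a, which was not called lower, has the half-site 94 bases before the start used, and Acadm, which was, has it 249 bases before. These matches describe letters in a window and not binding.

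Of the 2 uptake genes, Fabp3 (GRCm38.p6 chr4:130308738-130315463), the cytosolic fatty acid binding protein of heart muscle, measured 33.3 and 33.6 CPM in wild type cushions and 30.4 and 45.9 in mutant cushions. Wild type ventricles had 58.4 and 69.1 CPM and mutant ventricles 52.8 and 66.5. All cushion libraries were below all ventricle libraries. The log2 fold change, cushion minus ventricle, was -0.93 ± 0.21 (SE) in wild type (edgeR adjusted p = 0.0163) and -0.65 ± 0.21 in mutants (adjusted p = 0.0918, and 0.0024 with the replicate block). Cd36 (chr5:17781690-17888959), the membrane receptor for long-chain fatty acids and lipoproteins, measured 109 and 124 CPM in wild type cushions and 169 and 217 in wild type ventricles. In mutants the cushions had 112 and 184 CPM and the ventricles 165 and 169, so the second mutant cushion lay above both mutant ventricles. The wild type difference was -0.73 ± 0.23 (adjusted p = 0.0523, and 0.00156 with the block), and the mutant difference was -0.17 ± 0.23 (adjusted p = 0.709). Without mutant cushion replicate 2, the mutant difference was -0.57 (adjusted p = 0.136), and with the block as well it was -0.48 ± 0.15 (adjusted p = 0.0214), beside 22% of all genes called in that fit. Without mutant cushion replicate 1 the sign turned, to 0.14 ± 0.20 (adjusted p = 0.819), and with the block as well it was 0.046 ± 0.15 (adjusted p = 0.872). Cd36 is listed on 5 rows of the table, of which the one with the largest total was used.

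Of the CPT1 isoform genes Cpt1a and Cpt1b, only Cpt1b passed the threshold between tissues, in both genotypes. Cpt1b (chr15:89416405-89425862) encodes the CPT1 isoform of muscle, and its cushion libraries, at 140 and 187 CPM in wild type and 119 and 185 in mutants, were all below the ventricles, at 279 and 301 CPM in wild type and 283 and 365 in mutants. Its log2 fold change was -0.83 ± 0.24 in wild type (edgeR adjusted p = 0.0392) and -1.09 ± 0.24 in mutants (adjusted p = 0.0266). Cpt1a (chr19:3322326-3385735), the isoform of liver and of most other tissues, had 109 and 109 CPM in wild type cushions, 96.1 and 99.95 in mutant cushions, 95.8 and 85.3 in wild type ventricles and 90.8 and 91.4 in mutant ventricles. Every cushion library was above every ventricle library, by as little as 96.1 against 95.8 CPM, an arrangement found in 16% of all genes tested. The difference was 0.27 ± 0.12 in wild type (adjusted p = 0.125, and 0.0521 with the block) and 0.11 ± 0.12 in mutants (adjusted p = 0.635). With an offset for GC content and length, the mutant value was -0.0030, so no direction is given for Cpt1a in mutants.

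The ratio of Cpt1b to Cpt1a CPM was 1.28 and 1.72 in wild type cushions, 1.24 and 1.85 in mutant cushions, 2.91 and 3.53 in wild type ventricles and 3.12 and 4.0 in mutant ventricles. On the log2 scale the mean was 0.58 ± 0.29 (SD, n = 4) in cushions and 1.75 ± 0.20 (SD, n = 4) in ventricles, a difference of -1.17 that is given as a description, with no test, because the ratio was chosen after the values were seen. The difference was -1.26 among replicates 1 and -1.08 among replicates 2. Corrected for transcript length, Cpt1a made up 26.6% to 35.1% of the summed Cpt1a and Cpt1b level in cushions and 14.4% to 18.7% in ventricles. Both isoforms were therefore detected in each tissue, in unequal proportion.

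Cpt2 (chr4:107903982-107923589), the inner membrane enzyme that serves both CPT1 isoforms, was apart by tissue in every library. Cushions measured 37.0 and 37.0 CPM in wild type and 40.0 and 41.7 in mutants, and ventricles 63.7 and 58.3 in wild type and 63.7 and 64.1 in mutants. It fell by 0.72 ± 0.12 on the log2 scale in wild type cushion (edgeR adjusted p = 0.00482) and by 0.64 ± 0.12 in mutant cushion (adjusted p = 0.0134).

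**Figure D2:**
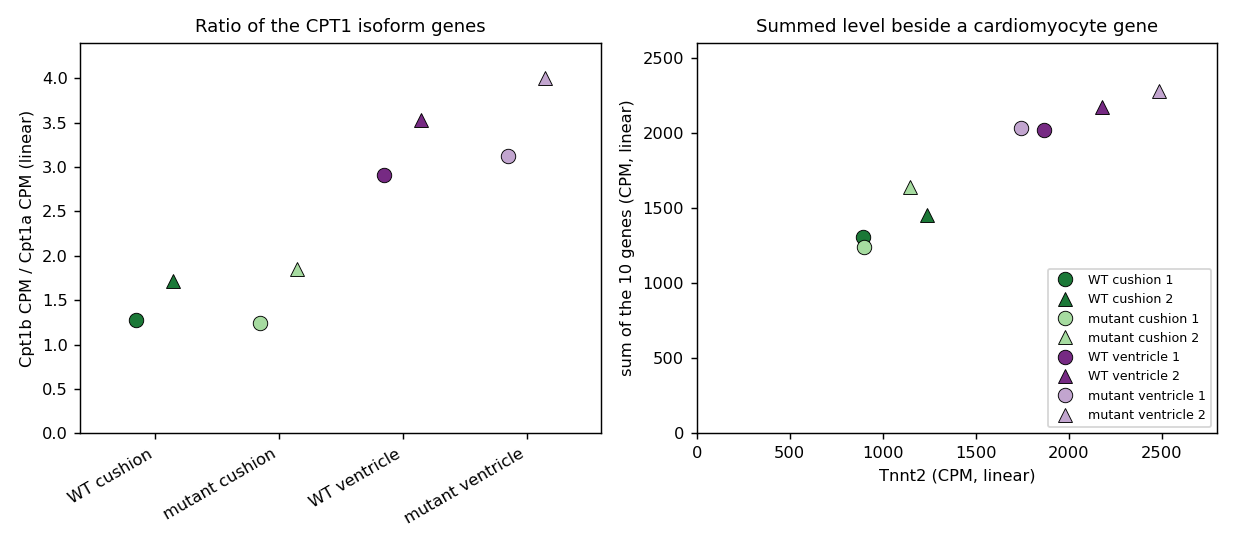
Left, ratio of Cpt1b to Cpt1a CPM in each library on a linear axis; cushions lie between 1.24 and 1.85 and ventricles between 2.91 and 4.0. Right, summed CPM of the 10 genes against Tnnt2 CPM, a cardiomyocyte gene, in each library; cushions are low on both axes and ventricles high on both (circle for replicate 1, triangle for replicate 2).

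The 3 acyl-CoA dehydrogenases were each lower in cushion. Acadl (chr1:66830839-66863309), which acts on long chains, measured 230 and 232 CPM in wild type cushions, 222 and 300 in mutant cushions, 412 and 418 in wild type ventricles and 402 and 391 in mutant ventricles. Its log2 fold change was -0.85 ± 0.16 in wild type (edgeR adjusted p = 0.0084) and -0.60 ± 0.16 in mutants (adjusted p = 0.0495). Acadm (chr3:153922353-153944643), the medium-chain enzyme, measured 133 and 146 CPM in wild type cushions, 133 and 175 in mutant cushions, 215 and 269 in wild type ventricles and 227 and 275 in mutant ventricles. It fell by 0.80 ± 0.19 in wild type (adjusted p = 0.0182) and by 0.71 ± 0.18 in mutants (adjusted p = 0.0471). Neither gene overlapped between tissues.

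Acadvl (chr11:70010183-70015428), the very-long-chain enzyme of the inner membrane, measured 112 and 126 CPM in wild type cushions, 104 and 127 in mutant cushions, 152 and 164 in wild type ventricles and 170 and 197 in mutant ventricles. Its fall passed the threshold in mutants, at -0.67 ± 0.15 (edgeR adjusted p = 0.0272), and not in wild type, at -0.40 ± 0.15 (adjusted p = 0.0819, and 0.00746 with the block). The difference between these 2 values, the interaction of genotype and tissue, was -0.27 with a 95% interval from -0.75 to 0.21.

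The trifunctional protein subunits stand head to head on chromosome 5, and both were lower in every cushion library than in any ventricle library. Hadha (chr5:30119423-30154980) carries the hydratase and long-chain hydroxyacyl-CoA dehydrogenase activities and was at 362 and 418 CPM in wild type cushions, 341 and 418 in mutant cushions, 499 and 491 in wild type ventricles and 502 and 578 in mutant ventricles. Its log2 fold change was -0.34 ± 0.16 in wild type (edgeR adjusted p = 0.145, and 0.0322 with the block) and -0.51 ± 0.16 in mutants (adjusted p = 0.0823, and 0.00661 with the block). Hadhb (chr5:30155253-30184593) carries the thiolase activity and measured 40.0 and 41.3 CPM in wild type cushions, 43.1 and 65.2 in mutant cushions, 73.9 and 97.6 in wild type ventricles and 76.3 and 81.6 in mutant ventricles. It fell by 1.08 ± 0.21 in wild type (adjusted p = 0.00945), the largest fall of the 10 there. In mutants the value was -0.54 ± 0.21 (adjusted p = 0.142, and 0.00665 with the block). Per kilobase of the transcript length used, Hadha exceeded Hadhb in every library, by 2.56 to 5.16 times. Whether the 2 fold changes differ was not tested.

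**Figure D3:**
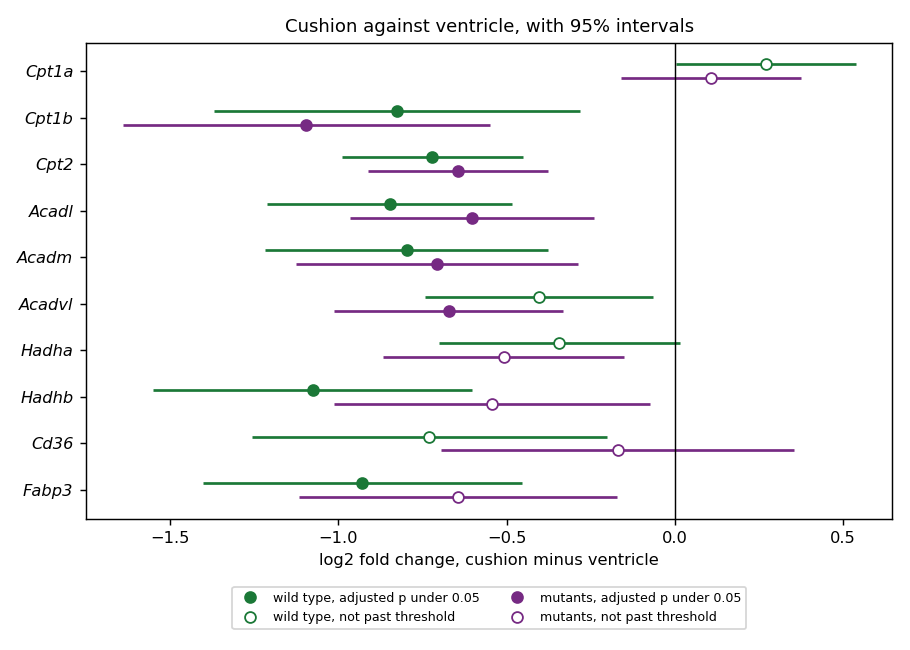
Log2 fold change, cushion minus ventricle, of each gene in wild type (green) and mutants (purple), with 95% intervals; filled points have an adjusted p under 0.05 in edgeR. Of the 10 genes, 9 lie below 0 in both genotypes, from -1.08 for Hadhb in wild type and -1.09 for Cpt1b in mutants, and Cpt1a lies above 0 with open points, at 0.27 and 0.11 (-0.0030 in mutants with a GC and length offset).

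Across the 8 libraries, 8 of the 10 genes had all 4 cushions below all 4 ventricles, beside 13.2% of all genes tested. Leaving out single libraries changed the count of calls without the block. In wild type it was 1 without wild type cushion replicate 1, 2 without wild type cushion replicate 2 and 1 without wild type ventricle replicate 2, and between 5 and 7 otherwise. Calls over all genes moved too, to 9.27%, 8.77% and 4.84% in those 3 fits and to between 14.7% and 22.9% in the others. In mutants it was 0 without mutant cushion replicate 1 or mutant ventricle replicate 2, beside 2.03% and 2.88% of all genes. It was 2 without either wild type ventricle, 3 without either wild type cushion or mutant ventricle replicate 1, and 7 without mutant cushion replicate 2, beside 5.55% to 8.52% of all genes. With the replicate block, leaving out single libraries gave 7 to 10 calls in wild type and 5 to 9 in mutants, beside 20% to 44.7% and 15.5% to 22.1% of all genes. The 10 calls in wild type came without either mutant cushion library and included Cpt1a, which was higher (edgeR adjusted p = 0.0487 and 0.0488), beside 44.6% and 44.7% of all genes called in those fits.

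Levels of different genes can be compared only per kilobase of transcript, and only roughly, since the transcripts that were counted are not known. On that scale Acadl was the highest of the 10 in each group, at 120 ± 0.81 CPM per kilobase (SD, n = 2) in wild type cushions and 217 ± 2.2 in wild type ventricles. Hadha followed at 97.1 ± 9.8 in wild type cushions and 123 ± 1.4 in wild type ventricles, where it was within the spread of Acadm at 118 ± 19. Cpt1b at 56.5 ± 12 and Acadvl at 55.0 ± 4.4 did not differ beyond their spread in wild type cushions. The lowest place went to Cpt2 in cushions, at 15.6 ± 0.026 in wild type, and to Cpt1a in ventricles, at 21.0 ± 1.7 in wild type.

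The 9 genes other than Cpt1a varied together over the 8 libraries. Their 36 pairwise Pearson correlations of log2 CPM ranged from 0.71 to 0.99, with a median of 0.91, and those of Cpt1a with each of them ranged from -0.87 to -0.63. These are descriptions: all genes share the libraries and the tissue difference. The genes whose pattern was most like the mean standardized level of the 10 were Ndufa9 (r = 0.998), Fsd2 (0.998), Atp5a1 (0.995), Mdh1 (0.995) and Hs3st4 (0.995). Ndufa9 and Atp5a1 encode parts of respiratory complex I and of ATP synthase, and Mdh1 is the cytosolic malate dehydrogenase. Their wild type differences between cushion and ventricle were -0.70, -0.71 and -0.89, and those of Fsd2 and Hs3st4 were -1.28 and -2.62.

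Markers of cell types differed between tissues along with these genes, not all in the same direction. Calls in these lists stand beside 10.6% of all genes called lower in wild type and 3.26% in mutants (20.1% and 10.5% with the block). In either direction, 23.1% of all genes were called in wild type and 9.42% in mutants. Of 16 cardiomyocyte markers, 14 were lower in wild type cushion and 4 were called lower, with a median of -0.64, near the -0.76 of the 10 genes. In mutants 14 of 16 were lower and 5 were called, with a median of -0.82. Their summed level, dominated by Ttn, was 34480 to 50448 CPM in cushions. Ventricles had 106178 and 96465 CPM in replicates 1 but 46052 and 46925 in replicates 2, below wild type cushion replicate 1. In each group replicate 1 had the higher sum, also for the cushion mesenchyme and erythroid markers given below. Troponin T, Tnnt2, measured 893 to 1237 CPM in cushions and 1744 to 2486 in ventricles, and no cardiomyocyte marker was at 0. All 4 ventricular myocardium markers were called lower in cushion, with sums of 2201 to 4143 CPM in cushions and 7129 to 9566 in ventricles. All 14 cushion mesenchyme markers were higher in wild type cushion, and 8 were called, with sums of 9597 to 21044 CPM in cushions and 2164 to 5610 in ventricles and the direction that the tissue labels give. Of 8 markers of atrial and AV canal myocardium, 6 were called higher and 1 lower in wild type cushion, with a median of 2.80, and 5 were called higher in mutant cushion, with a median of 2.45. Their summed level went the other way, at 328 to 984 CPM in cushions and 1484 to 2635 in ventricles. That sum is dominated in ventricles by Nppa, at 1295 to 2490 CPM there and 142 to 754 in cushions. It therefore mostly follows that gene and not the list. Endothelial and endocardial markers summed to 1572 to 1898 CPM in cushions and 1954 to 2554 in ventricles, and 2 of 12 were called lower in wild type cushion. Erythroid markers summed to 802 to 3660 CPM in cushions and 2396 to 7947 in ventricles, and 8 of 9 were lower in wild type cushion, with a median of -1.28. By call, 0 were lower and 1 was higher there, and 6 were lower with the block; in mutants the median was -1.21, with 0 called and 7 lower with the block. Higher in wild type cushion were 6 of 7 coronary and capillary endothelial markers (median 0.90) and 10 of 11 macrophage and leukocyte markers (0.60). So were 5 of 7 smooth muscle and pericyte markers (0.51) and 4 of 7 platelet markers (0.06), while 6 of 7 epicardial markers were lower (-0.67). In mutants these medians were 0.70, 0.71, 0.25, -0.79 and -0.41, in that order. In whole tissue, fewer cells of a type and less RNA per cell cannot be told apart, and the part of cell makeup in the differences was not tested.

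Other steps of fatty acid use did not all share the direction. Counts of calls in the lists that follow stand beside 23.1% of all genes called in either direction in wild type, 41.4% with the block and 9.42% in mutants. Among 17 other mitochondrial beta-oxidation enzymes, 14 were lower in wild type cushion and 4 were called (8 with the block), with a median of -0.18. The 4 were Etfa at -1.30 ± 0.16 (edgeR adjusted p = 0.00158) and Etfdh at -0.83 ± 0.20 (adjusted p = 0.0221), which pass electrons from the dehydrogenases to the respiratory chain, Hadh at -0.60 ± 0.13, the short-chain hydroxyacyl-CoA dehydrogenase, and Decr1 at -0.62 ± 0.14, which handles unsaturated chains. All 20 genes of the citrate cycle and mitochondrial mass were lower, 16 of them called (all 20 with the block), with a median of -0.69. Dld, Idh3a, Sdha and Hspa9 led by p, at -1.19, -1.06, -0.96 and -0.95. In mutants all 20 were below 0 and 10 were called, with a median of -0.66. The 17 other enzymes had 15 below 0 in mutants, with 5 called and a median of -0.53. Whether the medians of these lists differ from that of the 10 genes was not tested.

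Release, uptake and binding of fatty acids were divided. Of 12 such genes other than Cd36 and Fabp3, 4 were called higher and 3 lower in wild type cushion (7 and 4 with the block), with a median of 0.87. Lpl, the lipoprotein lipase that frees fatty acids from triglyceride, had 181 and 158 CPM in wild type cushions and 407 and 360 in wild type ventricles, a log2 fold change of -1.18 ± 0.17 (edgeR adjusted p = 0.00271). The transport protein genes Slc27a3, Slc27a6 and Slc27a4 were higher in cushion, by 1.66 ± 0.21, 1.82 ± 0.29 and 0.87 ± 0.16. Slc27a6 was low throughout, at 3.9 to 6.5 CPM in cushions and 1.4 to 1.6 in ventricles. Slc27a2, Slc27a5, Fabp1 and Fabp2 had at most 5 counts in a library and were not tested. In mutants, 8 of the 12 were higher, with 2 called higher and 2 lower and a median of 0.50.

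Acyl-CoA synthesis and the rest of the carnitine shuttle had 8 of 11 genes lower in wild type cushion, 2 called lower and 1 higher (6 and 2 with the block), with a median of -0.30. Acsl4 and Acsl3, which activate long-chain fatty acids, fell by 0.86 ± 0.15 and 0.73 ± 0.17, and Acsl5 was at -0.61 ± 0.20 (edgeR adjusted p = 0.0608). Cpt1c, the brain-type CPT1 relative, was higher by 1.34 ± 0.29 (adjusted p = 0.0141), at 10.7 and 11 CPM in wild type cushions against 4.4 and 4.1 in wild type ventricles. Of 13 peroxisomal genes, 9 were lower, with 1 called in each direction and a median of -0.10: Abcd2, a peroxisomal fatty acid importer, rose by 1.57 ± 0.19, and Hsd17b4, the peroxisomal bifunctional enzyme, fell by 0.39 ± 0.11. Scp2 and Abcd3 were at -0.44 ± 0.16 and -0.29 ± 0.13 and did not pass. In mutants, the 11 genes of acyl-CoA synthesis and the shuttle had 7 below 0, 0 called and a median of -0.20, and the 13 peroxisomal genes had 9 below 0, 1 called in each direction and a median of -0.17.

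Genes that set the choice between glucose and fatty acids, through malonyl-CoA or pyruvate dehydrogenase, had 11 of 13 lower, with 1 called in each direction (5 lower and 2 higher with the block) and a median of -0.30. Pdk3, a kinase that inactivates pyruvate dehydrogenase, fell by 1.06 ± 0.21 (edgeR adjusted p = 0.00928), and Acly, which makes cytosolic acetyl-CoA for lipid synthesis, rose by 0.53 ± 0.13 (adjusted p = 0.0257). Pdk4 and Pdk1 were at -0.43 ± 0.14 (adjusted p = 0.0531) and -0.44 ± 0.15 (adjusted p = 0.0605). Of 17 triglyceride storage and lipolysis genes, 13 were higher, 5 called higher and 2 lower, with a median of 0.22. Plin2, the coat protein of lipid droplets, rose by 1.16 ± 0.12, with 126 and 112 CPM in wild type cushions and 53.6 and 53.1 in wild type ventricles. The acyl-CoA thioesterases went both ways: Acot1 rose by 1.35 ± 0.18, and Acot13 and Acot2 fell by 1.34 ± 0.23 and 0.83 ± 0.18. In mutants, 9 of the 13 switch genes were lower and 1 was called lower, with a median of -0.13, and of the 17 storage genes 9 were higher, 2 called higher and 4 lower, with a median of 0.0033.

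Oxct1, Acat1 and Bdh1, genes for using ketone bodies, were lower in wild type cushion, and no statement is made here on the rest of their list. Oxct1, which activates ketone bodies in peripheral tissue, was at -0.87 ± 0.19 (edgeR adjusted p = 0.0139), with 449 and 508 CPM in wild type cushions and 801 and 943 in wild type ventricles. Acat1, the mitochondrial acetoacetyl-CoA thiolase, was at -0.82 ± 0.20 (adjusted p = 0.0237), and Bdh1, which oxidizes hydroxybutyrate, at -0.72 ± 0.15 (adjusted p = 0.0140).

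**Figure D4:**
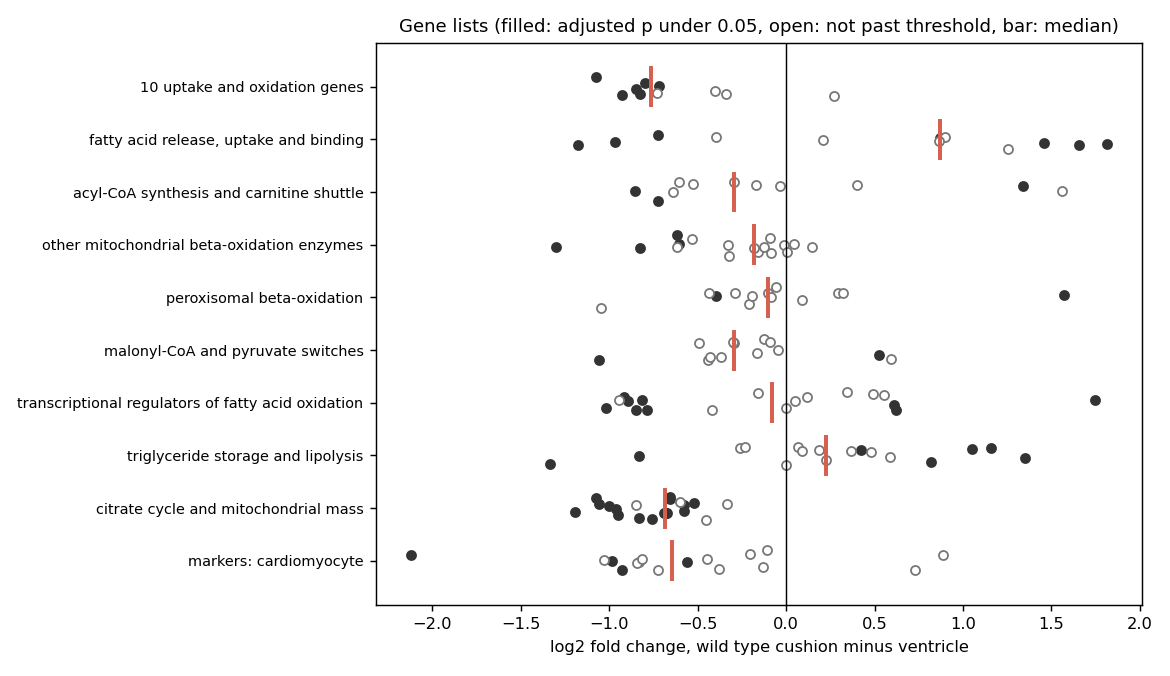
Log2 fold change, wild type cushion minus ventricle, of each gene in the 10 uptake and oxidation genes, 8 other lists of the pathway and the cardiomyocyte markers; filled points have an adjusted p under 0.05 in edgeR, and the bar is the median. Medians are -0.76 for the 10 genes, -0.69 for citrate cycle and mitochondrial mass, -0.64 for cardiomyocyte markers and 0.87 for fatty acid release, uptake and binding.

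Of 18 transcriptional regulators of fatty acid oxidation, 10 were lower in wild type cushion, 6 called lower and 3 higher (8 and 5 with the block), with a median of -0.08. Ppara, the receptor that switches on fatty acid oxidation genes, had 5.3 and 5.1 CPM in wild type cushions and 11.4 and 9.7 in wild type ventricles, a fall of 1.02 ± 0.27 (edgeR adjusted p = 0.0296). Its coactivator Ppargc1a fell by 0.85 ± 0.19 (adjusted p = 0.0155). The estrogen-related receptors Esrrb and Esrrg fell by 0.92 ± 0.23 and 0.89 ± 0.27 (adjusted p = 0.0256 and 0.0465), and Esrra was at 0.12 ± 0.30 (adjusted p = 0.799), a value that reversed with the GC and length offset and without wild type cushion replicate 2. Hif1a, the hypoxia-regulated factor, fell by 0.82 ± 0.15. Rxrg, a partner of PPAR receptors, rose by 1.75 ± 0.35 from about 1 CPM in ventricles (0.9 and 1.0 in wild type) to 2.5 and 3.8 in wild type cushions. In mutants, 12 of the 18 were lower, with 1 called in each direction and a median of -0.33.

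Mutants were compared with wild type in each tissue. In cushion, 0 of 10 passed the threshold and 0 had an unadjusted p under 0.05 in edgeR, beside 0% of all genes called and 1699 genes with an unadjusted p under 0.05. DESeq2 and limma-voom also called 0 of the 10. The log2 fold changes, mutant minus wild type, ran from -0.16 for Cpt1a to 0.41 for Hadhb, with a median of 0.14. Hadhb had a 95% interval from -0.06 to 0.88 and Cd36, at 0.35, one from -0.18 to 0.88, so rises of up to about 0.88 on the log2 scale lie inside the intervals. For Cpt2, at 0.14, the interval ran from -0.12 to 0.41. A p that misses the threshold does not show that the genotypes were alike.

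The direction in cushion rested on mutant cushion replicate 2. That library had the highest cushion level of Cd36, Fabp3, Cpt2, Acadl, Acadm and Hadhb. It was also the highest for Acadvl and Hadha, but barely, at 126.5 against 126.1 CPM and 417.91 against 417.87 CPM in wild type cushion replicate 2. Among replicates 1, 3 genes were higher and 7 lower in mutant cushion, with a median difference of -0.07, and among replicates 2, 8 were higher and 2 lower, with a median of 0.22. Without mutant cushion replicate 2, 2 genes were higher and 8 lower, with a median of -0.10, and Cd36 was at -0.05 and Fabp3 at -0.14. Without mutant cushion replicate 1 and with the replicate block, Hadhb at 0.59 ± 0.15 (edgeR adjusted p = 0.0245) and Cd36 at 0.57 ± 0.15 (adjusted p = 0.0249) were called higher, beside 5.84% of all genes called in that fit. These 2 calls compare mutant cushion replicate 2 alone with the wild type cushions, and the lone library is assumed to vary like the other groups. With all 8 libraries and the block, 0 of 10 were called, beside 0.863% of all genes.

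Base composition moved with the genotype values. Across genes, which are not independent replicates, the log2 fold change between genotypes in cushion had a Spearman rho of -0.62 with transcript GC content. Cd36 has the lowest GC content of the 10, at 38.4%, followed by Acadl at 45.1% and Hadhb at 45.4%, while the median of the 10 is 51.3%. With an offset for GC content and length, the cushion value of Cd36 was -0.02, that of Acadl -0.02 and that of Hadhb 0.22 ± 0.17 (edgeR adjusted p = 0.959). The same rho was 0.47 for the difference between genotypes in ventricle and -0.67 for the interaction of genotype and tissue. For the tissue difference it was 0.39 in wild type and -0.17 in mutants.

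In ventricle, 0 of 10 were called and 0 had an unadjusted p under 0.05, beside 0% of all genes called and 342 genes with an unadjusted p under 0.05 in edgeR. DESeq2, limma-voom and the replicate block called 0 of the 10 as well, beside 0.00669% of all genes with the block. The log2 fold changes ran from -0.21 for Cd36 to 0.22 for Acadvl, with a median of 0.03. Intervals were from -0.26 to 0.27 for Cpt1a, -0.12 to 0.56 for Acadvl and -0.73 to 0.31 for Cd36.

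**Figure D5:**
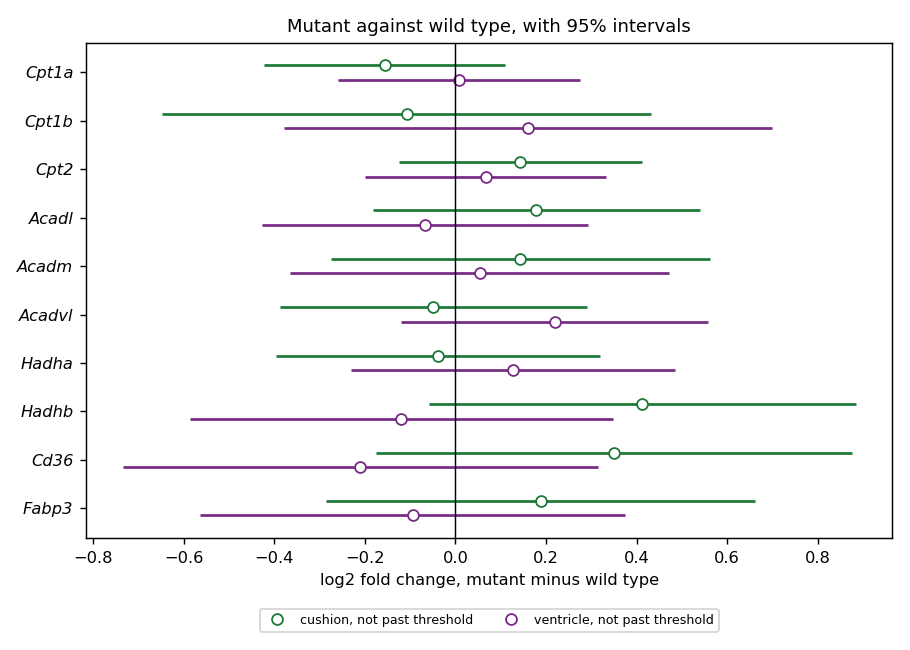
Log2 fold change, mutant minus wild type, of each gene in cushion (green) and ventricle (purple), with 95% intervals from edgeR; all points are open because no gene had an adjusted p under 0.05. Every interval includes 0, from -0.16 for Cpt1a to 0.41 for Hadhb in cushion and from -0.21 for Cd36 to 0.22 for Acadvl in ventricle.

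Whether the genotype difference varied with tissue was tested as an interaction. Of the 10 genes 0 passed and 0 had an unadjusted p under 0.05, beside 0% of all genes called and 1776 genes with an unadjusted p under 0.05 in edgeR, and DESeq2, limma-voom and the block called 0 of the 10. The largest values were 0.56 for Cd36 (95% interval from -0.18 to 1.30) and 0.53 for Hadhb (from -0.13 to 1.20). The median was 0.083 with all libraries and -0.084 without mutant cushion replicate 2, where 4 genes were above 0 and 6 below. Without mutant cushion replicate 1 and with the block, Cd36 at 0.77 ± 0.19 (adjusted p = 0.0202) and Hadhb at 0.70 ± 0.19 (adjusted p = 0.0302) were called, beside 8.6% of all genes, again from mutant cushion replicate 2 alone. With the GC and length offset, the interaction of Cd36 was -0.03 and that of Hadhb 0.27 ± 0.24.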

How the data were processed

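Total RNA of AV cushions and ventricles was sequenced with a stranded, ribosomal RNA depleted kit, per the labels' protocols. The submitters' processing notes name Bowtie 0.12.7 and mm9; which program counted reads, on which annotation and with which strand setting, is not given in the sources used here. Raw read counts for 28644 rows were deposited by the authors. Of the rows of a symbol, the one with the largest total was kept. The test was that of edgeR 4.0.16, run in R 4.3.3 (TMM factors, filter by expression within groups, robust quasi-likelihood fit over 8 libraries in 4 groups, two-sided, Benjamini-Hochberg adjustment, threshold 0.05), with DESeq2 1.42.0 and limma 3.58.1 as alternatives, and the scripts were tested on simulated data. Standard errors are the log2 fold change over the root of F. Lengths and GC content are of the longest protein-coding GENCODE transcript, or else the longest, and were matched for 98.8% of tested symbols. The annotation behind the counts is unknown, so values per kilobase are approximate. Coordinates and promoters come from RefSeq GRCm38.p6, not the build of the counts. Replicates differed by more than sampling noise (chi-square per degree of freedom 45.5 to 118), so all were used. The 2 replicate numbers pair libraries only as seen in the data: deviations from group means correlated in all 6 pairs of groups (r from 0.34 to 0.52), and nothing in the labels says what a number marks. The 10 genes and all lists were chosen with earlier results of these data known. From each list, up to 4 genes with the smallest p in wild type cushion against ventricle and a mean of at least 1 CPM are named, plus any called between genotypes, and Ppara, Ppargc1a, Esrra and Esrrg always. Overlapping genes on opposite strands are uncertain, since the strand setting is unknown. A result that this rule covers is not reported here.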

Additional observations from a re-analysis of the deposited data

How the results depend on the processing

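In wild type, the tissue difference of all 10 genes kept its direction in all 250 values under other settings; in mutants 246 of 250 did. Between genotypes, 224 of 250 values kept direction in cushion, 229 of 250 in ventricle and 224 of 240 for the interaction. Except for the interaction, these counts include fits without a library of a group that was not compared. Such fits can move a value only a little: the wild type tissue median was -0.76 in the main fit and without either mutant cushion library. The counts therefore overstate how firm the directions are. Adding the replicate block gained 6 calls and lost 0. Leaving out libraries with the block was chosen after seeing the data. Why values changed was not tested.

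In mutants, the genes called lower or higher between tissues were 8 with the replicate block, 9 with the block plus a GC and length offset, and 1 with only the groups compared. Over all fits that left out 1 library, the calls ranged from 1 to 10 in wild type, 0 to 9 in mutants, 0 to 2 between genotypes in cushion and 0 to 2 for the interaction. The calls over all genes were 6180 in wild type and 3572 in mutants with the block (6176 and 4754 with the offset too, 2200 in mutants with the offset alone, 641 with only the groups compared), against 3452 and 1407. Leaving out 1 library gave 739 to 3498 and 309 to 1301 without the block, and 3037 to 6824 and 2363 to 3379 with it. Between genotypes, all-gene calls in cushion were 23 by DESeq2, 5 with no filter, 129 with the block, 76 with the block and offset and 1 with the offset or with only the groups compared, against 0. In ventricle they were 1 by DESeq2, with the block, with block and offset and with only the groups compared. Leaving out 1 library with the block gave 25 to 891 in cushion, 0 to 12 in ventricle and 0 to 1312 for the interaction; without it at most 1, 1 and 0.

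Values that reversed with the GC and length offset (then with the replicate block added) were, between tissues, Cpt1a in mutants at -0.0030 (-0.0031) and Esrra in wild type at -0.44 (-0.46), the latter with an edgeR adjusted p of 0.0184 with the block. Between genotypes in cushion they were Cpt1b 0.043 (0.023), Acadl -0.024 (-0.027), Acadvl 0.066 (0.061), Hadha 0.020 (0.015) and Cd36 -0.017 (-0.046). In ventricle they were Cpt1a -0.0052 (-0.0066), Cpt2 -0.011 (-0.0099) and Cd36 0.013 (0.0080), and for the interaction Acadl -0.013 (-0.015), Acadm -0.031 (-0.036) and Cd36 -0.030 (-0.054).

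Leaving out 1 library, with or without the block, gave these ranges where a sign changed. Between genotypes in cushion they were Cpt1b from -0.46 to 0.18, Acadl from -0.054 to 0.38, Acadm from -0.069 to 0.33, Acadvl from -0.20 to 0.086, Hadha from -0.19 to 0.10, Cd36 from -0.053 to 0.67 and Fabp3 from -0.14 to 0.46. In ventricle they were Cpt1a from -0.082 to 0.14, Cpt1b from -0.034 to 0.36, Cpt2 from -0.0054 to 0.17, Acadl from -0.16 to 0.028, Acadm from -0.093 to 0.23, Hadha from -0.0031 to 0.28, Hadhb from -0.28 to 0.096 and Fabp3 from -0.27 to 0.071. For the interaction they were Cpt1b from -0.62 to 0.014, Cpt2 from -0.031 to 0.15, Acadm from -0.12 to 0.28 and Fabp3 from -0.046 to 0.55. Between tissues they were, in mutants, Cd36 from -0.57 to 0.14 and, in wild type, Esrra from -0.26 to 0.41. With 2 libraries a group, leaving out 1 leaves a lone library that is assumed to vary like the other groups.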
